A study of Mus musculus with 12 samples.

Results

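The Cxcl chemokine genes of the mouse lie in a pair of clusters on chromosome 5, and hotspots of RelA and Ikaros over these clusters are described here in bone-marrow-derived macrophages. The neutrophil cluster holds Cxcl5, Cxcl3, Cxcl1 and Cxcl2. The interferon-induced cluster holds Cxcl9, Cxcl10 and Cxcl11. A hotspot is a stretch of the genome where sequence tags of a chromatin immunoprecipitation pile up. Members were all hotspots with at least 1 bp in a 250 kb stretch around the first cluster or a 150 kb stretch around the second. These windows are given on the mm9 genome build and are 1300 kb apart. They held 53 of the 49690 hotspots of the 9 immunoprecipitated libraries, 27 in the neutrophil window and 26 in the interferon window. Joined across libraries wherever they overlapped, the 53 hotspots formed 22 regions, 14 and 8 respectively, numbered N1 to N14 and I1 to I8 by position.

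Macrophages were grown from bone marrow of C57BL/6J mice and received lipopolysaccharide (LPS), a bacterial cell wall component, for 0, 3 or 8 h. RelA was immunoprecipitated from wild-type cells and, as a separate series, from cells of animals labelled littermate controls. Ikaros was immunoprecipitated from wild-type cells at the same times, and input DNA came from untreated wild-type cells. All 10 groups consist of a single library. Replicate spread is therefore unknown, and no difference below carries a p-value. The labels do not say how many animals gave each culture or which cross the littermates came from. The lists hold no expression values against which the labelled cell type could be checked. In 6 libraries the file name holds a time beside or other than the labelled one, and the labels were followed. They are wild-type RelA and Ikaros at 0 and 8 h and littermate RelA at 3 and 8 h. Every comparison of 3 with 8 h below includes such a library and rests on its label.

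CXC chemokines are small secreted proteins that direct leukocyte migration. Cxcl1, Cxcl2, Cxcl3 and Cxcl5 carry a Glu-Leu-Arg motif before their first cysteines and draw neutrophils through the receptor Cxcr2. Cxcl9, Cxcl10 and Cxcl11 lack that motif, are induced by interferons and draw activated T cells and natural killer cells through Cxcr3. RelA is the transactivating NF-kB subunit that enters the nucleus after LPS and binds kB sites in inflammatory promoters and enhancers. Ikaros, the product of Ikzf1, is a zinc finger protein best known from lymphocyte development, where it binds GGGAA-type sequences and recruits chromatin remodelling complexes. In the RefSeq gene table, which follows the GRCm38.p6 build, the neutrophil cluster runs in the order Cxcl5, Ppbp, Pf4, Cxcl3, Cxcl15, Cxcl1, Cxcl2, and the interferon-induced cluster in the order Cxcl9, Art3, Cxcl10, Cxcl11. That table lists Cxcl11 of this strain as a transcribed pseudogene. Because the hotspots are on mm9, no hotspot was assigned to a single gene.

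The promoters of Cxcl3, Cxcl1 and Cxcl2 share a run of 11 bases, and it is shown because it is a kB site read from either strand. RefSeq promoter sequences were available for 5 of the 7 genes, and the 250 bases before the transcription start were searched. The kB consensus was found in 4 of the 5, in both orientations at one place in Cxcl3, Cxcl1 and Cxcl2 and at 2 separate places in Cxcl10, against 3.90% of all 32851 promoters in the table. The stretches of the neutrophil chemokines are chr5:90786008-90786058, chr5:90891154-90891204 and chr5:90903782-90903832 of GRCm38.p6, all on the plus strand, with kB matches in capitals.
Cxcl3: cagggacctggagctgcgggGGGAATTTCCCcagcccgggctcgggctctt
Cxcl1: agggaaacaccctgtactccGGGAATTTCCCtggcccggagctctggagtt
Cxcl2: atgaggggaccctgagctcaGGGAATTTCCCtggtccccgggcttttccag

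The shared run GGGAATTTCCC began 73 bases before the start of Cxcl3, 71 before that of Cxcl1 and 97 before that of Cxcl2, and occurred in 14 of the 32851 promoters, 0.0426%. Cxcl10 is shown whole because it pairs kB matches with an interferon-stimulated response element, searched as GAAANNGAAA on both strands and present in 2.98% of promoters. Its 250 bases are chr5:92348890-92349139 of GRCm38.p6, read on the minus strand, with the element first and the kB matches after it in capitals.
Cxcl10: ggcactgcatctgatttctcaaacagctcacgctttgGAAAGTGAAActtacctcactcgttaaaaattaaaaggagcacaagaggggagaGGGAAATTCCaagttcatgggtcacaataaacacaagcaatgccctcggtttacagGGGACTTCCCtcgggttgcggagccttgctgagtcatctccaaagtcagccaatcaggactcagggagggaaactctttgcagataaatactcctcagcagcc

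The element of Cxcl10 began 213 bases before the start and its kB matches 159 and 103 bases before it. Cxcl9 held neither pattern in its 250 bases. The Ikaros core TGGGAA, found in 21.6% of all promoters on either strand, was in none of the 5. The shorter GGGAA lies within the shared run and within a kB match of Cxcl10, and also occurs in Cxcl9. Its share of all promoters was not counted, so Ikaros-type sequence is not shown to be absent. These matches are letters in a reference sequence, and the lists cannot place a hotspot on them.

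Before LPS 1 region of each cluster was listed. No wild-type RelA hotspot lay in either window at 0 h, in a list of 47 hotspots. That list is too short to show absence at these loci, since 5805 hotspots were listed in littermate RelA and 853 in Ikaros at 0 h. Ikaros had a single one, in region I1 of the interferon window, and littermate RelA a single one, in N12 of the neutrophil window. At 3 h wild-type RelA had 4 hotspots in the neutrophil and 5 in the interferon window, and littermate RelA had 3 in each. Ikaros had 4 and 6 at 3 h. The wild-type RelA list held 4972 hotspots at 3 h and 1878 at 8 h, the littermate list 9999 and 5231, and the Ikaros list 7109 and 13796, so counts over time also follow the length of the list. At 8 h wild-type RelA had 2 in each window, littermate RelA had 4 and 1, and Ikaros had 9 and 8. Per 100 kb the interferon window carried 3.33 wild-type RelA hotspots at 3 h and the neutrophil window 1.60. In littermate RelA they were 2.00 and 1.20 at 3 h and, with the order turned, 0.667 and 1.60 at 8 h. For Ikaros these densities were 4.00 and 1.60 at 3 h and 5.33 and 3.60 at 8 h.

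Both windows held more hotspots than most stretches of their length. Of 10552 stretches of 250 kb across the genome, 2.88% held at least as many wild-type RelA 3 h hotspots as the neutrophil window, 10.6% as many littermate RelA 3 h hotspots, 5.30% as many Ikaros hotspots at 3 h and 1.88% as many at 8 h. Of 17596 stretches of 150 kb, 0.574% matched the interferon window in wild-type RelA at 3 h, 4.57% in littermate RelA at 3 h, 0.676% in Ikaros at 3 h and 0.852% at 8 h. The windows were chosen for their genes, and stretches without any gene are part of this background. In the 1300 kb between the windows there was 1 wild-type RelA hotspot at 3 h. Littermate RelA had 3, 5 and 2 there at 0, 3 and 8 h, and Ikaros had 2 at 3 h and 7 at 8 h.

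**Figure D1:**
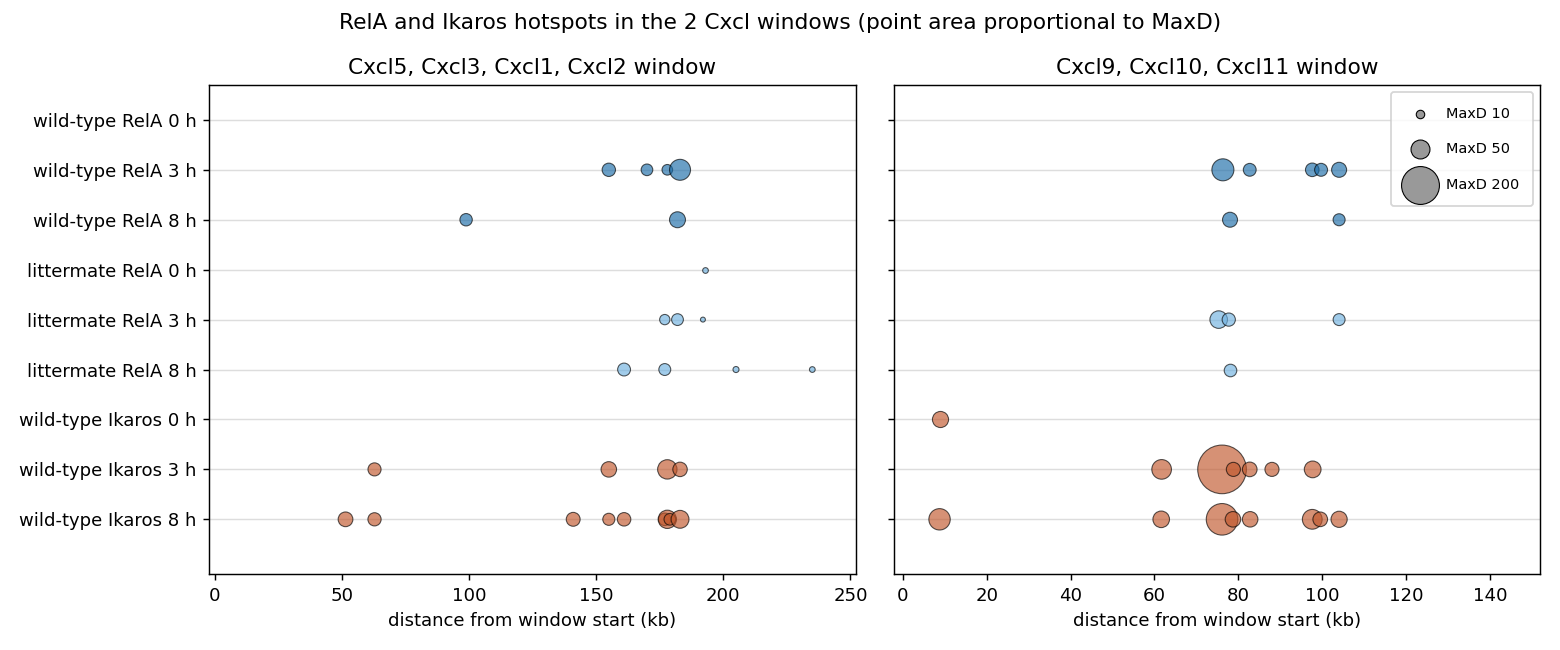
Hotspots of each library (rows) along the neutrophil window (left) and the interferon window (right), plotted at their centre in kb from the window start, with point area proportional to the highest tag density, MaxD, in the authors' unit. Most hotspots of the neutrophil window lie from N5 onward, and an Ikaros hotspot of the interferon window, with MaxD 330 at 3 h, is far larger than the rest.

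The strength of a hotspot is given below by MaxD, its highest tag density, by its z score and by its place in the library's list after hotspots of the input DNA were removed. The scale of the densities is not stated. MaxD is therefore compared between the windows within a library, and most ratios between libraries are set beside the whole list. Values of several libraries printed without that list are a listing, and no change is read from them. The lowest z score listed ran from 8.64 to 10.9 over the libraries, so a region absent from a list may be bound below its threshold.

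By their highest MaxD the neutrophil and interferon windows were close to each other in wild-type RelA, and in littermate RelA at 8 h, and further apart in littermate RelA at 3 h and in Ikaros. In wild-type RelA at 3 h the highest MaxD was 61.3 in the neutrophil and 67.7 in the interferon window, and their ratio was 0.905. The values for 8 h were 35.5 and 31.3, which gives 1.13. In littermate RelA the highest MaxD was 19.4 and 43.0 at 3 h (ratio 0.451) and 23.1 and 22.0 at 8 h (ratio 1.05). The interferon window led both RelA series at 3 h, and the neutrophil window was slightly ahead at 8 h. In Ikaros the highest MaxD was 52.5 and 330 at 3 h (ratio 0.159) and 46.8 and 139 at 8 h (ratio 0.338). The interferon window thus led Ikaros 6.28-fold at 3 h and 2.96-fold at 8 h.

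The size of the lead in Ikaros came from I3. In the other interferon regions the highest Ikaros MaxD was 53.8 at 3 h (I2), close to the 52.5 of the neutrophil window, and 63.9 at 8 h (I1), above its 46.8. By the median MaxD of a window's hotspots the Ikaros ratio of neutrophil to interferon window was 0.907 at 3 h and 0.677 at 8 h. The littermate RelA ratio at 8 h turned from 1.05 to 0.566 by the median, since 2 of its 4 neutrophil hotspots had MaxD of 5.10 or less. With windows widened by 25 kb on each side the littermate ratios became 0.808 at 3 h and 2.36 at 8 h. A RelA hotspot 17.5 kb before the neutrophil window, at chr5:91131731-91132458 in wild-type cells at 3 h, accounts for this change. Its MaxD was 67.1 and 38.6 in wild-type RelA at 3 and 8 h, and 34.7 and 51.9 in littermate RelA. It therefore exceeded every RelA hotspot inside the neutrophil window at these times.

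**Figure D2:**
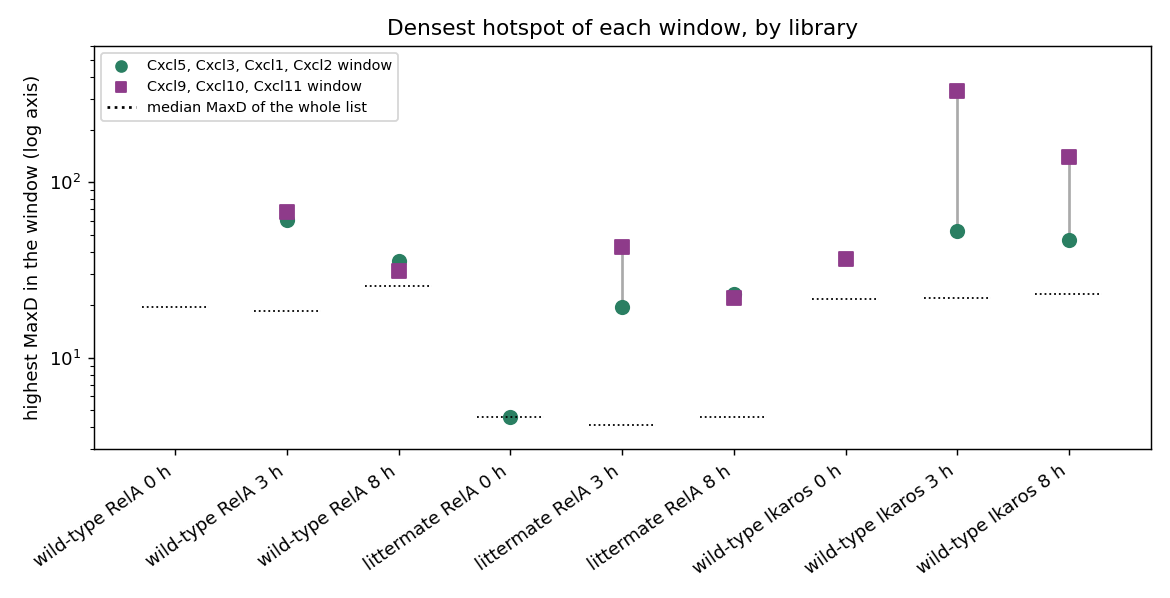
Highest MaxD (log axis, authors' unit) in the neutrophil window (circles) and the interferon window (squares) of each library, joined by a line where both windows held a hotspot, with the median MaxD of the whole list dotted. The 2 symbols nearly coincide for wild-type RelA (61.3 and 67.7 at 3 h) and are widely parted for Ikaros (52.5 and 330 at 3 h).

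Ranks within each list gave the same order of leaders. By z score the strongest neutrophil hotspot stood 123rd of 4972 in wild-type RelA at 3 h (z 46.4) and the strongest interferon hotspot 56th (z 56.3). In Ikaros at 3 h these places were 457th (z 28.7) and 2nd (z 190) of 7109, and at 8 h 956th (z 31.4) and 10th (z 97.9) of 13796. In littermate RelA at 3 h they were 6671st (z 11.8) and 86th (z 47.3) of 9999. By MaxD the littermate places were 853rd and 123rd, because that list holds many hotspots of high z score and low density. With input hotspots left in, the interferon region stood 28th by z score in Ikaros at 3 h and 43rd at 8 h, since many of the highest-scoring Ikaros hotspots overlap input. At 8 h wild-type RelA reversed the order, with the neutrophil leader 491st (z 22.5) and the interferon leader 950th (z 15.9) of 1878. In littermate RelA at 8 h the neutrophil leader stood 1249th (z 15.4) and the interferon leader 3369th (z 11.9) of 5231. That neutrophil leader by z score was N13, with MaxD 5.10. The densest neutrophil hotspot of that library, in N6, stood 1386th (z 15.0).

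Below the leaders the windows also differed in place. At 8 h all 8 Ikaros hotspots of the interferon window were in the upper 50% of the list by MaxD and 6 were by z score. In the neutrophil window 6 and 3 of 9 were. At 3 h the Ikaros hotspots of the interferon window were all 6 in the upper 50% by MaxD, but only 2 by z score, and those of the neutrophil window 4 and 3 of 4.

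**Figure D3:**
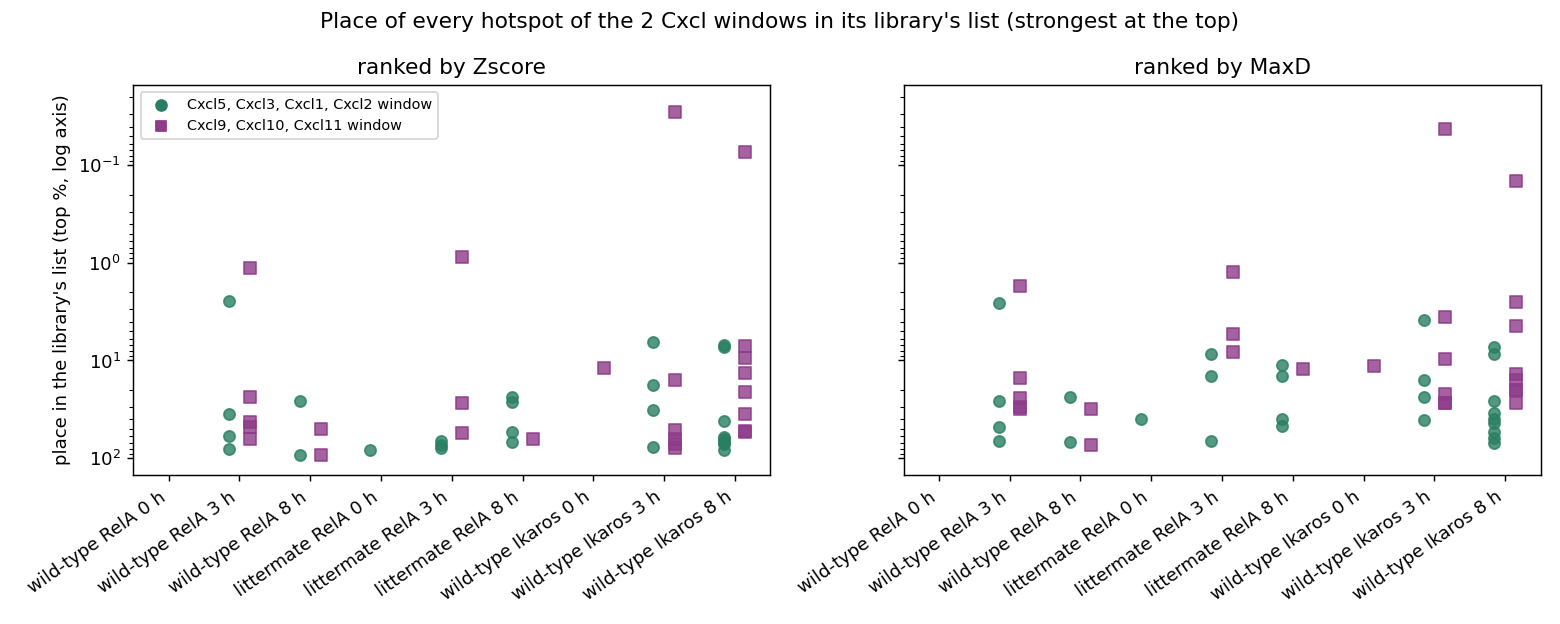
Place of every hotspot of the neutrophil window (circles) and the interferon window (squares) in its library's list, as the top percent on an inverted log axis, ranked by z score (left) and by MaxD (right). The Ikaros hotspot of the interferon window stands at the top 0.0281% by z score at 3 h and 0.0725% at 8 h, above every other point of that panel.

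Region I3 was the main RelA and Ikaros site of the interferon window. It spanned chr5:92773975-92779032, was listed in all 6 libraries after LPS and in none before. Wild-type RelA covered 4411 bp of it at 3 h, the 4th widest hotspot of that list, against a median width of 538 bp. Its MaxD was 67.7 there. Littermate RelA had 2 hotspots in it at 3 h, parted by 710 bp, with MaxD 43.0 and 24.4, and the first, 2150 bp wide, was the widest of 9999. Ikaros covered 4176 bp with MaxD 330 at 3 h and 4283 bp with MaxD 139 at 8 h, the 18th and 10th widest hotspots of their lists. A smaller Ikaros hotspot followed directly, with MaxD 27.7 at 3 h and 33.6 at 8 h.

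At 8 h RelA in I3 was listed only in a short part near its far end, and this was the case in both series. The wild-type hotspot at 8 h was 491 bp wide at chr5:92777759-92778250, with MaxD 31.3. It began 3630 bp inside the 3 h hotspot and ended 290 bp before its end. The littermate hotspot at 8 h was 403 bp wide at chr5:92777672-92778075, with MaxD 22.0, and shared 316 bp with the wild-type one. The denser of the littermate hotspots at 3 h, at chr5:92774209-92776359, had no RelA hotspot over it at 8 h in either series. Ikaros still covered the whole stretch at 8 h. The extent of a hotspot depends on the caller's threshold, and the lowest z score of the 8 h lists (10.9 and 10.5) was above that of the 3 h lists (8.88 and 8.64).

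The highest density in I3 was lower at 8 h than at 3 h for both factors in wild-type cells, by more than in most of their lists. RelA went from 67.7 to 31.3, 0.463 of the 3 h value, while the median over the 1556 wild-type RelA hotspots kept at 8 h was 1.03. Only 2.19% of those had a lower ratio. The centres of the 3 and 8 h RelA hotspots of I3 are 1670 bp apart, so this ratio may compare different places within the region. Ikaros went from 330 to 139, 0.420 of the 3 h value, while the median over 5840 kept Ikaros hotspots was 1.28 and 0.274% had a lower ratio. Hotspots that were dense at 3 h had lower ratios in general. Among the tenth of pairs that was densest at 3 h the median ratio was 0.833 for RelA and 1.08 for Ikaros, and 5.73% and 2.21% of these had a lower ratio than I3. In littermate RelA the highest MaxD in I3 was 43.0 at 3 h and 22.0 at 8 h, in hotspots that do not overlap. The part of I3 listed at both times in littermate RelA went from 24.4 to 22.0. That is a ratio of 0.901 against a median of 1.12, with centres 201 bp apart.

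I3 also carried more Ikaros for its RelA than nearly all shared sites. At 3 h its Ikaros MaxD was 4.87 times its RelA MaxD, while the median over 2684 overlapping pairs was 1.18 and 1.30% had a higher ratio. Among the tenth of pairs densest in RelA, 99.3% had a lower ratio. At 8 h the ratio was 4.43 against a median of 1.13 over 1511 pairs, with centres 1888 bp apart, against 256 bp at 3 h. The other interferon regions with both factors at 3 h were near the median, at 1.31 in I4 and 1.52 in I6.

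Region I8, at chr5:92803584-92804868, was the second RelA site of the interferon window and was the only other one listed in both series. RelA MaxD was 31.5 at 3 h and 20.2 at 8 h in wild-type cells and 19.9 at 3 h in littermate cells, and I8 was not listed in littermate cells at 8 h. Ikaros was not listed there at 3 h and had MaxD 36.6 (z 21.3) at 8 h. Region I7, at chr5:92799258-92799906, followed the same order, with wild-type RelA alone at 3 h (MaxD 23.4) and Ikaros alone at 8 h (MaxD 30.0). I7 and I8 are the only regions of either window with wild-type RelA at 3 h and Ikaros first listed at 8 h. Over the whole wild-type RelA 3 h list, 54.0% of hotspots overlapped the Ikaros list of 3 h and 66.5% the longer Ikaros list of 8 h. A later Ikaros listing is therefore not particular to these regions.

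Regions I4 and I6 carried wild-type RelA and Ikaros together at 3 h and Ikaros alone at 8 h. In I4, at chr5:92782392-92783098, RelA MaxD was 23.0 at 3 h and Ikaros MaxD was 30.0 at 3 h and 33.6 at 8 h. In I6, at chr5:92797178-92797985, RelA MaxD was 25.7 at 3 h and Ikaros MaxD was 39.1 at 3 h and 54.5 at 8 h. The Ikaros ratios of 1.12 and 1.39 lie on either side of the list median of 1.28. The Ikaros z score in I6 was 11.5 at 3 h and 28.4 at 8 h.

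The remaining regions of the interferon window were Ikaros sites without RelA. I1, at chr5:92708241-92709299, was, with N12, one of the sites listed before LPS. Its Ikaros MaxD was 36.3 at 0 h (z 21.5, 101st of 853) and 63.9 at 8 h (z 31.1), and it was not listed at 3 h. The ratio of 1.76 compares with a median of 2.02 over 801 resting Ikaros hotspots kept at 8 h. I2, at chr5:92761179-92762025, had Ikaros MaxD 53.8 at 3 h and 38.4 at 8 h. Its ratio of 0.714 was undercut by 4.54% of kept hotspots, and by 16.5% of those in the tenth densest at 3 h. I5 was listed once, in Ikaros at 3 h with MaxD 27.7.

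In the neutrophil window of wild-type cells RelA and Ikaros peaked at different regions at 3 h, while at 8 h Ikaros was nearly equal in both. Region N11, at chr5:91331845-91333544, led RelA by MaxD in every library after LPS except littermate RelA at 8 h, which peaked at N6. Wild-type RelA MaxD was 61.3 at 3 h (z 46.4) and 35.5 at 8 h (z 22.5), and littermate RelA MaxD was 19.4 at 3 h (z 11.8) with none listed at 8 h. N11 was the only region of this window with RelA in both series. Ikaros MaxD in N11 was 29.2 at 3 h and 44.6 at 8 h. Wild-type RelA thus stood at 0.579 of its 3 h value, where the median over kept RelA hotspots was 1.03, and in the tenth of pairs densest at 3 h 0.833, with 14.0% of these lower. Ikaros stood at 1.52, where the median over kept Ikaros hotspots was 1.28. Its Ikaros over RelA ratio was 0.477 at 3 h, lower than in 94.8% of pairs, and 1.26 at 8 h. The median of this ratio over the tenth of pairs densest in RelA at 3 h was 0.524, and 36.4% of these had a lower ratio than N11. The Ikaros hotspot at 3 h was centred 474 bp from that of RelA.

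Region N9, at chr5:91327144-91328140 and 3705 bp before N11, had the highest Ikaros MaxD at both times, at 8 h narrowly. Ikaros MaxD was 52.5 at 3 h (z 28.7) and 46.8 at 8 h (z 31.4), 0.892 of the 3 h value. RelA was listed there only in wild-type cells at 3 h, with MaxD 15.8 and z 9.89. The Ikaros over RelA ratio of 3.32 was exceeded by 3.99% of pairs. N9 and N11 thus lay on opposite sides of the median of all pairs, 1.18, within 7.12 kb that also held N8 and N10. RelA in N9 was close to the lowest z score of its list, 8.88. The ratio of N9 was not compared with pairs of like RelA density. Littermate RelA next to N9 was listed in N8, at chr5:91326428-91326971, with MaxD 14.8 at 3 h and 19.8 at 8 h, and Ikaros had MaxD 22.1 in N8 at 8 h.

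Region N5, at chr5:91304933-91305605, carried wild-type RelA and Ikaros together at 3 h, with MaxD 24.9 and 33.5. At 8 h Ikaros MaxD was 20.4 there, 0.610 of its 3 h value, and 2.16% of kept Ikaros hotspots had a lower ratio. N6, at chr5:91310563-91311138, was first listed at 8 h, in littermate RelA with MaxD 23.1 and in wild-type Ikaros with MaxD 25.4. N2, at chr5:91212651-91213105, was an Ikaros site without RelA, with MaxD 23.9 at 3 h and 24.4 at 8 h. N12, at chr5:91342318-91342683, was listed in littermate RelA alone, with MaxD 4.56 at 0 h, the median of that list, and 3.40 at 3 h. The other 7 neutrophil regions were listed in 1 library each, with MaxD from 4.56 to 30.2 and z scores from 11.4 to 15.4.

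**Figure D4:**
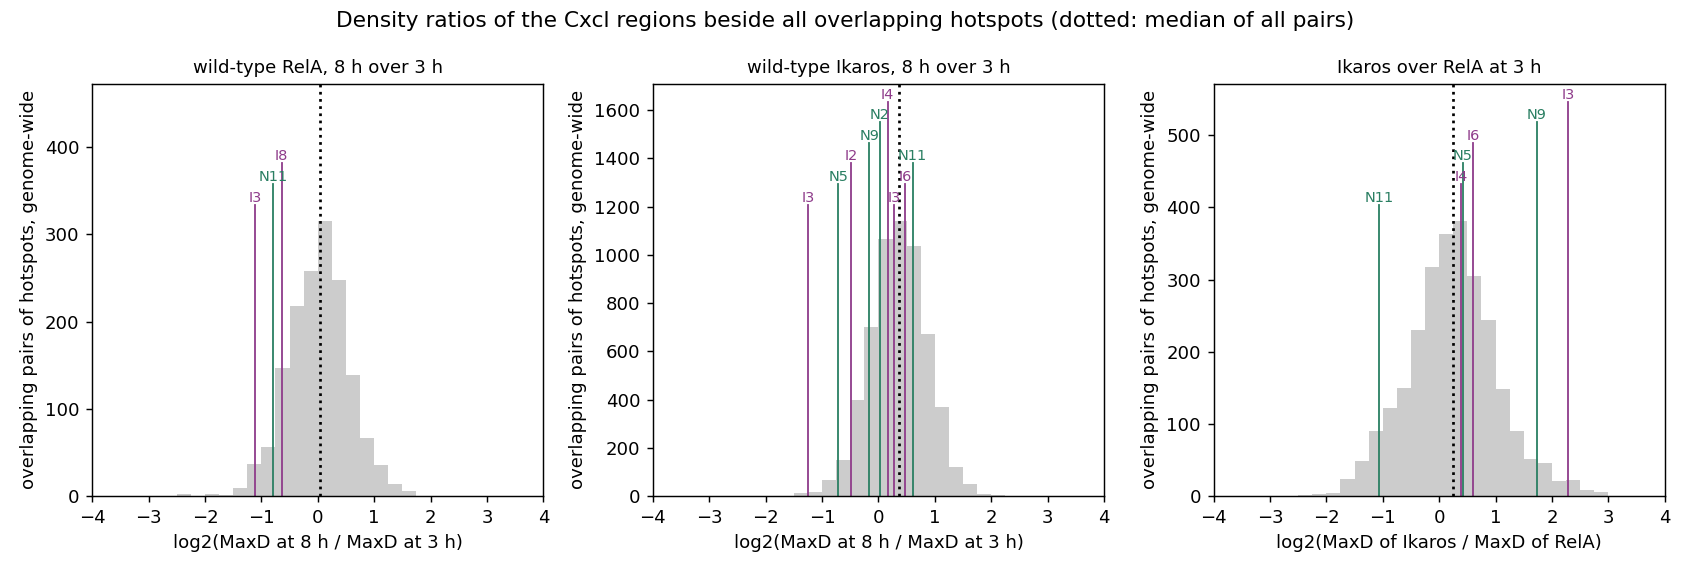
Ratio of MaxD for wild-type RelA at 8 h over 3 h (left), Ikaros at 8 h over 3 h (middle) and Ikaros over RelA at 3 h (right) on a log2 scale, with grey bars for all overlapping pairs of hotspots genome-wide, their median dotted, and a labelled line for each pair in the Cxcl windows (2 lines for the 2 Ikaros hotspots of I3 in the middle panel). The densest hotspot of I3 lies in the low tail for both factors over time and in the high tail for Ikaros over RelA. The other Ikaros line of I3, at a ratio of 1.21, lies near the median. N11 and N9 lie at opposite sides of the right panel.

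Retention and sharing in the windows rest on few hotspots, and their exact Clopper-Pearson 95% intervals are wide. Of the wild-type RelA 3 h hotspots, 1 of 4 in the neutrophil window (interval 0.631 to 80.6%) and 2 of 5 in the interferon window (40.0%, 5.27 to 85.3) overlapped an 8 h hotspot, against 31.3% of the whole list. In littermate RelA it was 1 of 3 in each window against 14.4%. Of the Ikaros 3 h hotspots, 4 of 4 (100%, 39.8 to 100) and 5 of 6 (83.3%, 35.9 to 99.6) were listed at 8 h, against 82.1%. Of the Ikaros 8 h hotspots, 4 of 9 and 5 of 8 had been listed at 3 h, against 42.2%. These shares were not distinguishable from those of the whole lists at this number of hotspots.

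RelA met Ikaros at 3 h in 3 of 4 wild-type hotspots of the neutrophil window (75.0%, 19.4 to 99.4) and 3 of 5 of the interferon window (60.0%, 14.7 to 94.7), against 54.0% of the whole list. With the Ikaros list of 8 h these counts were 3 of 4 and 5 of 5, against 66.5%. Of RelA hotspots at 8 h, 1 of 2 and 2 of 2 overlapped Ikaros, against 80.5%. From the side of Ikaros at 3 h, 3 of 4 and 3 of 6 carried RelA, against 37.1%. Over all libraries, each of the 5 interferon regions with RelA was also listed in Ikaros, and of the 10 neutrophil regions with RelA 5 were. Of the other 5 neutrophil regions, 3 were listed in littermate RelA alone with MaxD of 5.10 or less. No share over the whole lists was counted for these pooled regions, so the difference between the windows has no background beside it.

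Littermate and wild-type RelA shared more of their hotspots in the interferon window by count. All 3 littermate RelA 3 h hotspots there overlapped wild-type RelA at 3 h (interval 29.2 to 100%), against 1 of 3 in the neutrophil window (0.840 to 90.6%) and 17.3% of the whole littermate list. Of the 3, 2 lie under a single wild-type hotspot in I3 and are not independent. In the other direction it was 2 of 5 and 1 of 4, against 34.4%. At 8 h 1 of 1 littermate hotspots of the interferon window and 0 of 4 of the neutrophil window overlapped wild-type RelA, against 15.8%. Littermate RelA at 3 h overlapped wild-type Ikaros at 3 h in 2 of 3 hotspots of the interferon window and 0 of 3 of the neutrophil window, against 12.6%. Those 2 also lie under a single Ikaros hotspot in I3 and are not independent. At N11 littermate MaxD at 3 h was 0.316 of the wild-type value, a ratio that 1.99% of 1712 shared hotspots undercut. Among the tenth of pairs densest in wild-type RelA the median was 0.595, and 4.05% had a lower ratio than N11. At I3 and I8 the ratio was 0.635 and 0.631, near the median of 0.718 over all pairs. The centres compared in I3 are 1050 bp apart, so its ratio may compare different places. Genotype label, animals and library cannot be told apart between these series.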

How the data were processed

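Processed hotspot lists of 10 chromatin immunoprecipitation or input libraries were used, 1 per group, on mm9 and with CASAVA named, per the submitters' processing notes. Neither aligner, peak caller nor threshold was found in the labels or file headers (not given in the sources used here). The authors deposited for each hotspot the highest and mean tag density (a signal of unstated scale), a z score and a p-value, the last not used here. Coordinates are printed as deposited, and whether starts count from 0 or 1 is not stated. Reads per library are unknown, so densities carry no counting interval.

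Hotspots overlapping a wild-type input hotspot by 1 bp were removed from every list. No hotspot of either window was removed, and input had none there. Ranks were taken in the remaining list. Hotspots shared a region when they overlapped by 1 bp or more. Where several overlapped, the densest entered a ratio. Exact Clopper-Pearson 95% intervals cover counting error alone, and neighbouring hotspots are not independent. Genome-wide stretches were laid end to end along each chromosome up to its highest listed coordinate. Regions in 2 or more libraries were described singly and others by range, and all 7 genes were named. The windows, rule and comparisons were chosen with earlier results of these data known. Alternatives covered input removal, window width, a MaxD floor of 10, a common lowest z score, reciprocal overlap of 50%, hotspot centres, equal list lengths, ranks by MaxD, mean density and medians. Promoters are from the RefSeq table of GRCm38.p6 and searches used both strands, counting overlapping matches. Scripts ran under Python 3.11.15 with scipy 1.17.1, pandas 2.3.3, numpy 2.4.6 and matplotlib 3.10.9. Overlap, rank and ratio code was tested on simulated data.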

Additional observations from a re-analysis of the deposited data

Results flagged for a closer look

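The count of RelA hotspots in the neutrophil window moved in opposite directions between the cultures. From 3 to 8 h the number of hotspots changed by -2 in wild-type cells (4 to 2) and by 1 in littermate cells (3 to 4). With a single library at each time, the contrast between these changes was not tested. Littermate cells were listed in N8, N11 and N12 at 3 h and in N6, N8, N13 and N14 at 8 h. Counting only hotspots of MaxD 10 or more, they had 2 at both times, N8 and N11 and then N6 and N8. In the interferon window the changes were -3 and -2. With the same floor, wild-type cells still had 4 at 3 h and 2 at 8 h in the neutrophil window. The wild-type changes were not seen with lists of equal length by z score, where both windows held 2 hotspots at 3 h and 2 at 8 h. Littermate lists of equal length held 0 at 3 h and 4 at 8 h in the neutrophil window. The series thus differed under either setting. The deposited wild-type lists, after input removal, held 4972 and 1878 hotspots.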

How the results depend on the processing

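No test is attached to these values. Shares were called moved outside their 95% interval, other values past a factor of 1.5. By this measure 191 of 218 alternative values of 40 results stayed, 26 moved and 1 turned direction.

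With lists of equal length by z score, wild-type RelA at 3 h held 2 hotspots in each window, littermate RelA at 3 h 0 in the neutrophil window and Ikaros at 8 h 3 in the neutrophil window. With MaxD of 10 or more, littermate RelA at 8 h held 2 in the neutrophil window. The ratio of neutrophil to interferon window moved to 0.808 and 2.36 in littermate RelA at 3 and 8 h with wider windows, and by median MaxD to 0.907 and 0.677 in Ikaros at 3 and 8 h and, turning direction, to 0.566 in littermate RelA at 8 h. The place of the leading hotspot in its list by MaxD moved, in the neutrophil window, to the top 8.53% and 11.1% (littermate RelA, 3 and 8 h) and 3.81% (Ikaros, 3 h), and in the interferon window to 1.73% and 31.2% (wild-type RelA), 12.2% (littermate RelA, 8 h) and 0.145% (Ikaros, 8 h). With wider windows it was 14.2% and 2.06% in the neutrophil window of littermate RelA. With the MaxD floor it was 52.6% there at 8 h and 3.11% in the interferon window of littermate RelA at 3 h. With input hotspots kept, Ikaros of the interferon window stood at 0.391% and 0.311% at 3 and 8 h. Under reciprocal overlap of 50% the share kept at 8 h was 0% in the interferon window for both RelA series. The share of RelA 8 h hotspots with Ikaros was 0% in both windows. In the interferon window the overlapping hotspots differ in width. In the neutrophil window the overlapping pair, in N11, is also offset, with centres 371 bp apart.

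No paired analysis was possible because no group has a second library. Leaving out a library would for the same reason empty its group. Depth is unknown, and with it the weakest binding that each list shows.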
